A study of Mus musculus with 12 samples.

Results

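Genes of the myeloid and erythroid lineages, 9 in all, were followed in sorted mouse thymocytes: the 6 myeloid genes S100a8, S100a9, Lyz2, Cebpb, Csf1r and Itgam, and the 3 erythroid genes Alas2, Gata1 and Klf1. They were chosen by name, and all 12 probe sets that carry 1 of these symbols were taken, out of 45037 probe sets tested and 18193 genes with a symbol of their own. Cebpb had 2 probe sets, Csf1r had 3, and the other 7 genes had 1 each. The arrays hold IkL/L and WT cells at 3 stages: DN3 and DN4 cells, which lack CD4 and CD8, and DP cells, which carry both. Each of the 6 groups had 2 arrays, and cells of 3 mice were combined before sorting. IkL/L cells are described by the submitters as Ikaros-deficient, and IkL/L is known as a hypomorphic allele of Ikzf1, the gene for the lymphoid zinc-finger factor Ikaros. Strain and age are not given in the sources used here.

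S100a8 and S100a9 form calprotectin, the calcium-binding complex that fills the cytoplasm of neutrophils, and Lyz2 is the lysozyme of granulocytes and macrophages. C/EBP beta is a leucine-zipper factor of myeloid cells, Csf1r is the receptor that macrophages need for survival, and Itgam is the alpha chain of the Mac-1 integrin (CD11b). Alas2 catalyses the first step of heme synthesis in red cell precursors, where the factors Gata1 and Klf1 switch on globin and heme genes. Thymocytes descend from progenitors that can still give rise to myeloid cells, and sorted thymus fractions can also hold granulocytes, macrophages and red cells.

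Levels are log2 signals throughout, and the median probe set of an array stood at 5.14 to 5.22. The replicate arrays of a group correlated with r of 0.983 to 0.995 across probe sets. The sorted stages carried their own markers. Il2ra, the CD25 chain that marks DN3 cells, stood between 10.30 and 10.72 on the 4 DN3 arrays and between 4.56 and 6.25 on the other 8, and Cd4 between 10.57 and 11.30 on the 4 DP arrays. The brighter Ikzf1 probe set was lower in IkL/L cells at each stage, with differences of -0.65 in DN3, -0.63 in DN4 and -0.70 in DP cells (adjusted p = 0.0187, 0.0202 and 0.00979). The dimmer set differed by -0.29, -1.03 and -0.23 (each ± 0.14, SE) and passed in DN4 cells only (adjusted p = 0.547, 0.00799 and 0.659). Where either set binds relative to the IkL/L alteration was not checked. The 3 IkL/L replicate 2 arrays stood apart: the Y-linked gene Eif2s3y read 2.82, 3.12 and 2.95 there, and between 7.78 and 9.57 on the other 9 arrays. The labels do not say whether the replicates of a group are separate pools. The Y-linked readings differ between the IkL/L replicates of each stage, so those were not the same pool of cells. For WT cells this cannot be told. The p-values measure the spread between these arrays, and their small number limits the precision.

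**Figure D1:**
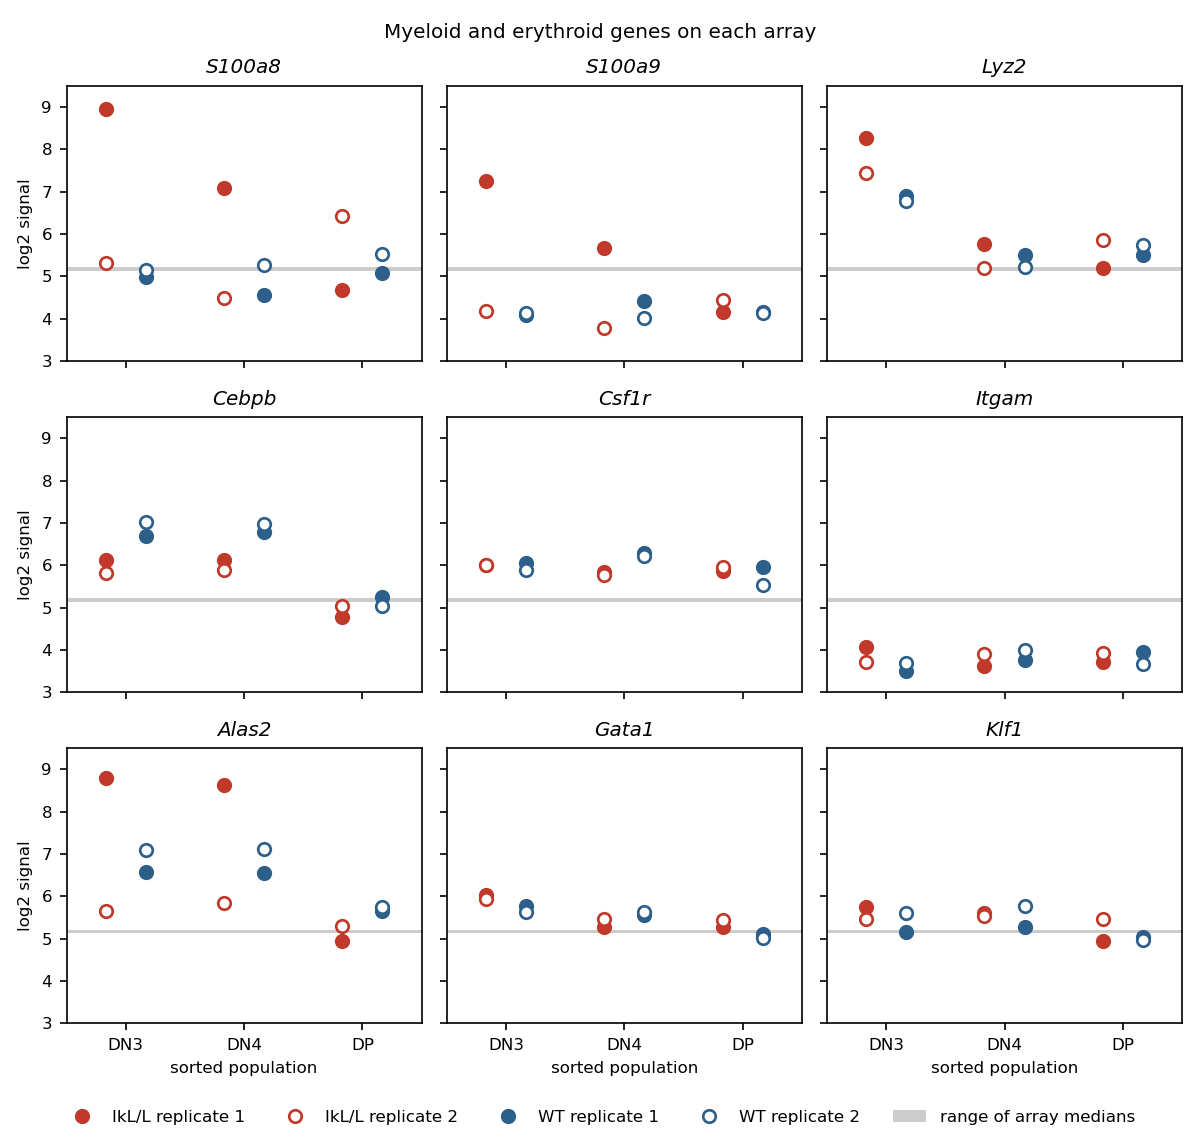
Log2 signal of the brightest probe set of each of the 9 genes (vertical axis) in DN3, DN4 and DP cells (horizontal axis), 1 point per array, IkL/L in red left of WT in blue, replicate 1 filled and replicate 2 open; the grey band is the range of the 12 array medians. S100a8, S100a9 and Alas2 are high on IkL/L DN3 and DN4 replicate 1, Lyz2 is high on all 4 DN3 arrays, and Cebpb is lower in IkL/L than in WT DN3 and DN4 cells.

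S100a8 and S100a9 were high on IkL/L DN3 and DN4 replicate 1, and near or below the array median on most other arrays. S100a8 read 8.96 and 5.33 in IkL/L DN3 cells, against 4.98 and 5.15 in WT DN3 cells. In DN4 cells it read 7.09 and 4.49 in IkL/L, against 4.55 and 5.27 in WT, and in DP cells 4.68 and 6.43 in IkL/L, against 5.09 and 5.52 in WT. Thus replicate 1 was the high array of IkL/L DN3 and DN4 cells, replicate 2 was the high one of IkL/L DP cells, and the genotypes overlapped in DN4 and DP cells. S100a9 read 7.27 and 4.19 in IkL/L DN3 cells against 4.09 and 4.13 in WT, and 5.66 and 3.78 in IkL/L DN4 cells against 4.43 and 4.01 in WT. In DP cells it read 4.16 and 4.45 in IkL/L against 4.15 and 4.13 in WT. All 6 WT arrays lay below the array median for S100a9, where a low level cannot be told from background. S100a8 differed by 2.08 ± 1.12 (SE) log2 units between IkL/L and WT DN3 cells, with a 95% interval of -0.44 to 4.60 (adjusted p = 0.603), and S100a9 by 1.62 ± 0.84 (-0.27 to 3.50, adjusted p = 0.583). Neither passed the test in DN4 or DP cells. Ordered by mean, the 3 IkL/L groups stood above the 3 WT groups for both genes, and each neighbouring pair of groups in that order overlapped.

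S100a8 and S100a9 lie close together, at chr3:90669071-90670034 and chr3:90692630-90695721 (GRCm38.p6). Since they stood high on the same arrays, the 250 bases before each gene's start are shown from RefSeq, GRCm38.p6, at chr3:90668821-90669070 on the plus strand for S100a8 and chr3:90695722-90695971 on the minus strand for S100a9. Capitals mark matches, on either strand, to the letters GATAA (GATA factors), CACCC (KLF factors) and GAGGAA (PU.1).
S100a8: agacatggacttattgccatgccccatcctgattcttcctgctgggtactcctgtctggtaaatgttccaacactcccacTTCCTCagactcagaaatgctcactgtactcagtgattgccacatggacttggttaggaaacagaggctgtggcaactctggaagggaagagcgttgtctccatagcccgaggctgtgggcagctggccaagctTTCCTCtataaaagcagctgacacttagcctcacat
S100a9: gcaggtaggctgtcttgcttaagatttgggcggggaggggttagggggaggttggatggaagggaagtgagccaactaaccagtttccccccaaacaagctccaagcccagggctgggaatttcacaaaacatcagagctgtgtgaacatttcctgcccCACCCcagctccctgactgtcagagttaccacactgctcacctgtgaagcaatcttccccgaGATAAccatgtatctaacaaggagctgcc
The S100a8 window held 2 matches to GAGGAA, a motif present in 23.3% of 32851 promoter windows of that length. The S100a9 window held 1 match to GATAA (22.6% of windows) and 1 to CACCC (52.0%). Neither window held the C/EBP letters TTGCNNCAA (1.74% of windows) or the looser TTGCNNNAA, which contains it (8.29%). Among the 9 genes, the windows of S100a8, S100a9, Lyz2, Cebpb, Itgam, Alas2, Gata1 and Klf1 were searched, and none had a C/EBP match.

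Other granulocyte genes stood high on the same arrays. Of 17 measured genes of a 20-gene granulocyte list, 8 lay 1 log2 unit or more above both WT arrays on IkL/L DN3 replicate 1: S100a8, S100a9, Lyz2, Ngp, Camp, Ltf, Lcn2 and Chil3. On IkL/L DN3 replicate 2 that count was 0. Of all probe sets, 0.633% lay that far above both WT arrays on the first of these arrays and 1.73% on the second. Ngp, which encodes a neutrophil granule protein, read 7.95 and 5.68 in IkL/L DN3 cells against 5.30 and 5.61 in WT, and 6.29 and 5.14 in IkL/L DN4 cells against 5.38 and 5.68 in WT. Camp, the gene of the antimicrobial peptide cathelicidin, read 7.17 and 5.37 in IkL/L DN3 cells against 5.34 and 5.34 in WT. The 8 genes were thus chosen by their values. All 8 also lay above both WT arrays by some amount on IkL/L DN4 replicate 1, as did 35.5% of all probe sets, and 7 of the 8 on IkL/L DP replicate 2, as did 32.9%. On IkL/L DN4 replicate 1, S100a8 and S100a9 did so by 1 log2 unit or more.

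**Figure D2:**
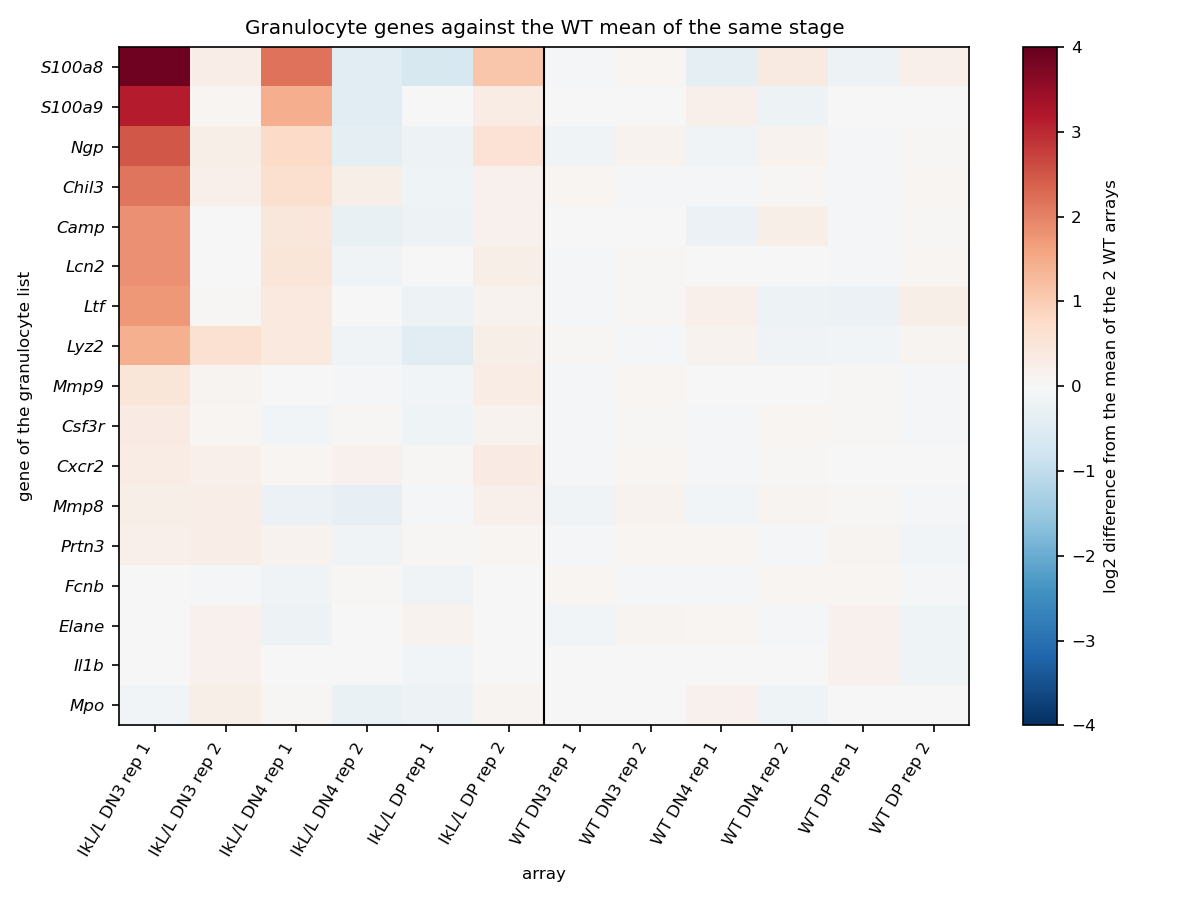
Log2 difference of each of the 17 measured granulocyte genes (rows) from the mean of the 2 WT arrays of the same stage, on each of the 12 arrays (columns, IkL/L left of the line and WT right of it); red is higher and blue lower. The upper 8 rows are red on IkL/L DN3 replicate 1 and paler red on IkL/L DN4 replicate 1, and the lower 9 rows, from Mmp9 to Mpo, are pale on every array.

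The granulocyte list averaged 5.92 and 4.92 on the IkL/L DN3 arrays, against 4.71 and 4.79 on the WT DN3 arrays. In DN4 cells its means were 5.11 and 4.61 in IkL/L against 4.73 and 4.75 in WT, and in DP cells 4.58 and 4.97 in IkL/L against 4.71 and 4.73 in WT. The summed linear signal of the list was 1797 and 637 in IkL/L DN3 cells, against 522 and 545 in WT DN3 cells. The other 9 genes of the list read between 4.03 and 5.45 on the 12 arrays, near or below the array medians. Of the primary granule genes, Elane (4.86 to 5.45) was at or above the array median on 9 of the 12 arrays, of both genotypes, while Mpo (4.10 to 4.58) and Prtn3 (4.45 to 4.94) were below it throughout. The receptor genes Csf3r (4.47 to 4.96) and Cxcr2 (4.03 to 4.58) were also below it throughout. Of the 17 genes 0 were called between the genotypes at any stage. Of all probe sets, 1.09% were called in DN3, 1.82% in DN4 and 1.68% in DP cells. With 1 bright set a gene the shares were 4.28%, 6.89% and 5.98%. The median differences of the 17 genes were 0.28, 0.08 and 0.07, against 0.01, -0.04 and -0.01 over all probe sets. In bulk RNA, more cells of a type and more RNA per cell cannot be told apart, and the part of admixed granulocytes in these values was not tested.

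The mean of a monocyte and macrophage list was highest on both WT DN4 arrays and on IkL/L DN3 replicate 1. Its 18 measured genes averaged 4.90 to 5.19 in IkL/L DN3 cells against 4.83 to 4.91 in WT, 4.86 to 4.92 in IkL/L DN4 cells against 5.09 to 5.28 in WT, and 4.86 to 5.04 in IkL/L DP cells against 4.88 to 4.92 in WT. Their summed linear signal ran from 735 to 1040 in IkL/L DN3 cells, against 653 to 689 in WT, from 667 to 778 in IkL/L DN4 cells, against 863 to 1041 in WT, and from 692 to 893 in IkL/L DP cells, against 670 to 694 in WT. By that sum IkL/L DP replicate 2 stood above WT DN4 replicate 1. The macrophage genes C1qa, C1qb, C1qc, Cd68, Mrc1 and Marco lay below the array median on all 12 arrays, the highest reading among them 5.06. These 6 were picked for their low level. Csf1r, Lyz2, Ctss, Ccr2 and Apoe of the same list were at or above that median on all 12 arrays, and Adgre1 on 11. Itgam, Fcgr1, Fcgr3 and Cd14 lay below it throughout, and Cx3cr1 and Mpeg1 reached it on 1 array each. Of the list 1 gene, the fractalkine receptor Cx3cr1, was called between the genotypes, lower in IkL/L DN4 cells by 0.93 ± 0.16 (SE; adjusted p = 0.0231), a contrast in which 1.82% of all probe sets were called, and 6.89% with 1 bright set a gene. Ctss, the protease cathepsin S, was the brightest gene of the list. It read 7.24 and 5.44 in IkL/L DN3 cells against 6.09 and 6.36 in WT, 6.80 and 6.37 in IkL/L DN4 cells against 7.97 and 8.44 in WT, and 6.17 and 8.03 in IkL/L DP cells against 6.96 and 6.68 in WT. Ctss was thus high on IkL/L DP replicate 2, as S100a8 was, and on both WT DN4 arrays, where S100a8 was not. Apoe, the apolipoprotein E gene of macrophages and other cells, was among the 3 brightest of the list. It read 7.07 and 6.62 in IkL/L DN3 cells against 5.91 and 6.13 in WT, 7.65 and 7.19 in IkL/L DN4 cells against 6.31 and 6.75 in WT, and 7.35 and 6.90 in IkL/L DP cells against 6.18 and 6.70 in WT. Its IkL/L arrays lay above WT without overlap at each stage, as did 20.1% of all probe sets in DN3 cells and 18.3% in DP cells. That share was not counted for DN4 cells. The differences of 0.83, 0.89 and 0.68 (each ± 0.26, SE) did not pass (adjusted p = 0.268, 0.112 and 0.333).

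Lyz2 was high in DN3 cells of both genotypes, which S100a8 and S100a9 were not. It read 8.28 and 7.45 in IkL/L DN3 cells, against 6.90 and 6.79 in WT DN3 cells. In DN4 cells it read 5.76 and 5.21 in IkL/L against 5.50 and 5.22 in WT, and in DP cells 5.20 and 5.86 in IkL/L against 5.52 and 5.74 in WT. All 4 DN3 arrays lay above the other 8 arrays. The mean was 7.87 ± 0.58 in IkL/L DN3 cells (SD, n = 2), 6.84 ± 0.08 in WT DN3 cells, and 5.36 to 5.63 in the other 4 groups, which overlapped in the order of their means. From DN3 to DN4, Lyz2 fell by 2.38 ± 0.30 (SE) log2 units in IkL/L cells (adjusted p = 0.00574) and fell by 1.48 ± 0.30 in WT cells (adjusted p = 0.0326). Without IkL/L DN4 replicate 2 the first call was lost (adjusted p = 0.066). The second was lost without any 1 of the 4 WT arrays it compares (adjusted p = 0.13 to 0.251), and also with the replicate number as a block (adjusted p = 0.051, against 0.0123 in IkL/L cells). Between IkL/L and WT DN3 cells it differed by 1.02 ± 0.30 (interval 0.35 to 1.70), which did not pass over all probe sets (adjusted p = 0.228). The lysozyme genes lie side by side, Lyz2 at chr10:117277541-117282272 and Lyz1 at chr10:117287795-117292868, and are near-identical, so signal of one may include the other. A Lyz1 probe set read 10.34 and 9.68 in IkL/L DN3 cells against 8.69 and 8.56 in WT, and 7.29 and 6.12 in IkL/L DN4 cells against 5.44 and 6.04 in WT. It fell by 3.31 ± 0.65 from DN3 to DN4 in IkL/L cells (adjusted p = 0.0488) and differed by -2.89 ± 0.65 in WT cells (adjusted p = 0.053). Of the other Lyz1 sets, 1 differed over that step by -3.06 ± 0.64 in IkL/L cells and -2.66 ± 0.64 in WT cells (adjusted p = 0.0621 and 0.0685). Another, which lay between 3.68 and 4.02 on the 12 arrays, differed by -0.28 ± 0.11 and -0.02 ± 0.11 (adjusted p = 0.399 and 0.958).

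Cebpb was lower in IkL/L than in WT thymocytes before the DP stage. Its brighter probe set read 6.13 and 5.82 in IkL/L DN3 cells, against 6.69 and 7.03 in WT DN3 cells. In DN4 cells it read 6.13 and 5.88 in IkL/L, against 6.78 and 6.97 in WT, and in DP cells 4.77 and 5.04 in IkL/L, against 5.24 and 5.04 in WT. The IkL/L arrays lay below the WT arrays without overlap in DN3 and DN4 cells, and the gap in DP cells was under 0.01 log2 units. In DN4 cells 30.7% of all probe sets lay below in that way, a share not counted for DN3 cells. The difference was -0.89 ± 0.17 (SE) in DN3 cells (adjusted p = 0.0480), -0.87 ± 0.17 in DN4 cells (adjusted p = 0.0400) and -0.24 ± 0.17 in DP cells (adjusted p = 0.743). The DN3 call was lost in 11 of 12 fits that left out 1 array each (adjusted p up to 0.342, without WT DN3 replicate 2), and the DN4 call in 10 of 12 (up to 0.269, without IkL/L DN4 replicate 2). With the replicate number as a block neither passed (adjusted p = 0.0905 in DN3 and 0.0683 in DN4 cells). In the 24 fits without 1 array the differences ran from -1.06 to -0.72 in DN3 cells and from -0.996 to -0.746 in DN4 cells. The change of the genotype difference from DN3 to DP cells was 0.65 ± 0.24 (interval 0.10 to 1.19) and did not pass (adjusted p = 0.558).

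Cebpb also fell at the DP stage in both genotypes. Between DN4 and DP cells the brighter set fell by 1.10 ± 0.17 in IkL/L cells (adjusted p = 0.00133) and fell by 1.73 ± 0.17 in WT cells (adjusted p = 5.53e-05), and both calls held in each of 12 fits without 1 array. In the order of means, WT DN4 and WT DN3 cells overlapped at the top, IkL/L DN4 and DN3 cells overlapped below them, and WT DP and IkL/L DP cells came last. The dimmer set lay below the array median on all 12 arrays, between 3.45 and 4.26. It read 3.93 and 3.74 in IkL/L DN3 cells against 3.97 and 4.11 in WT, and 3.86 and 3.78 in IkL/L DN4 cells against 4.26 and 4.22 in WT. Those differences of -0.20 and -0.42 did not pass (adjusted p = 0.635 and 0.107). Between DN4 and DP cells it fell by 0.67 ± 0.12 in WT cells (adjusted p = 0.00192).

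No other measured member of the C/EBP family was called between the genotypes, though whether they differed from Cebpb was not tested. Of 5 measured members, Cebpb was the 1 called, lower in DN3 and DN4 cells, and the median difference of the family was -0.14 in DN3 and -0.17 in DN4 cells, against 0.01 and -0.04 over all probe sets. Cebpg, the brightest member, read 9.52 to 9.81 on all 12 arrays. Ddit3, a stress-induced member, read 7.21 and 7.58 in IkL/L DN3 cells against 7.79 and 7.59 in WT, and 7.05 and 7.13 in IkL/L DN4 cells against 7.48 and 7.73 in WT. It lay below WT without overlap at both stages, as 30.7% of all probe sets did in DN4 cells, a share not counted for DN3 cells. Its differences of -0.29 ± 0.14 and -0.52 ± 0.14 did not pass (adjusted p = 0.557 and 0.103). Cebpa and Cebpd, which drive granulocyte maturation, stayed below the array median. Of 10 myeloid regulators, 1 was called lower in DN3 and in DN4 cells, Cebpb in both, where 1.09% and 1.82% of all probe sets were called, and 4.28% and 6.89% with 1 bright set a gene. From DN4 to DP 3 rose and 3 fell in IkL/L cells, and 3 rose and 4 fell in WT cells. Over that step 21.4% of all probe sets were called in IkL/L cells and 33.6% in WT cells, and 45.5% and 57.0% where 1 bright set was kept for each gene. Irf8, a factor of monocytes and dendritic cells, fell by 2.18 ± 0.15 in IkL/L cells (adjusted p = 1.32e-05) and fell by 1.62 ± 0.15 in WT cells (adjusted p = 3.81e-05). Klf4, a factor of monocytes, fell by 2.27 ± 0.39 in IkL/L cells (adjusted p = 0.00243) and fell by 2.96 ± 0.39 in WT cells (adjusted p = 0.000326). Egr2, a zinc-finger factor induced by receptor signals, rose by 3.01 ± 0.37 in IkL/L cells (adjusted p = 0.000331) and by 2.57 ± 0.37 in WT cells (adjusted p = 0.000557).

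**Figure D3:**
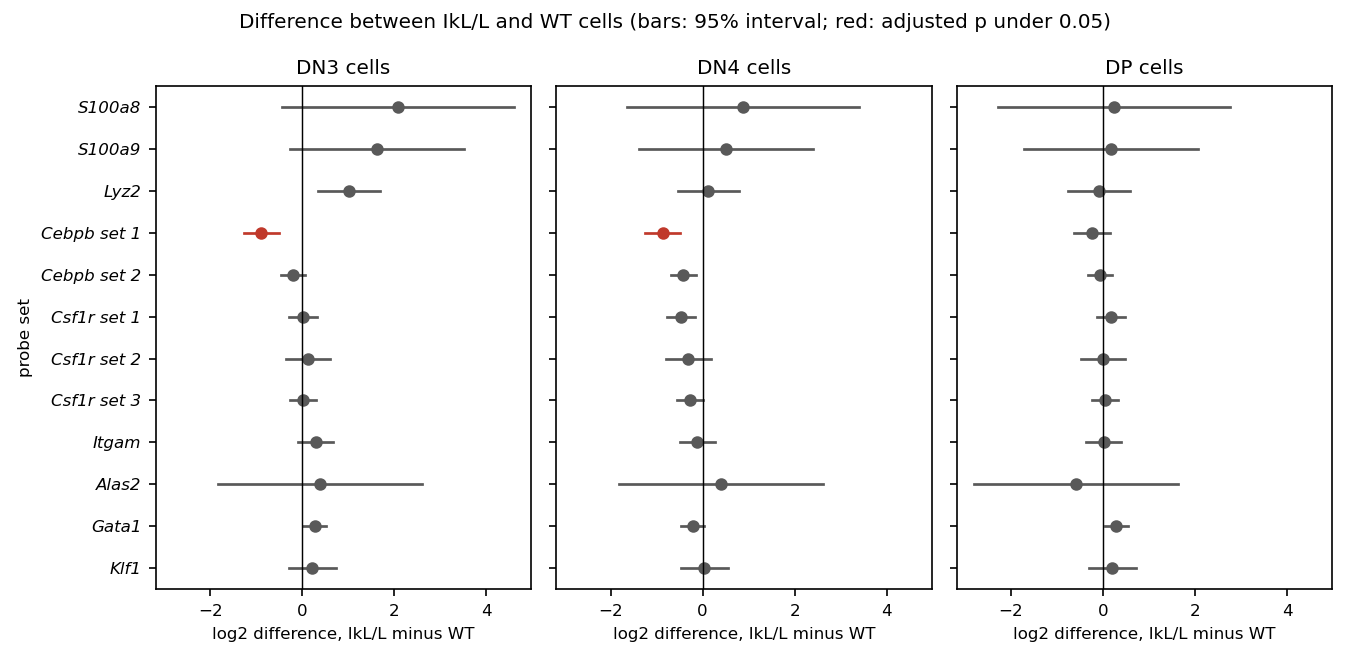
Log2 difference between IkL/L and WT cells (horizontal axis) of each of the 12 probe sets (rows; sets of a gene run from brightest to dimmest) in DN3, DN4 and DP cells; bars are 95% intervals and red marks adjusted p under 0.05. The brighter Cebpb set is red at -0.89 and -0.87 in DN3 and DN4 cells, and S100a8, S100a9 and Alas2 have the widest intervals.

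Csf1r and Itgam, which mark macrophages and other mature myeloid cells, were low and nearly level. The 3 Csf1r sets read between 5.14 and 6.29 on the 12 arrays. The brightest read 6.0 on both arrays of IkL/L DN3 cells against 6.05 and 5.90 in WT, 5.83 and 5.76 in IkL/L DN4 cells against 6.29 and 6.22 in WT, and 5.87 and 5.97 in IkL/L DP cells against 5.95 and 5.54 in WT. The genotypes were apart in DN4 cells, IkL/L below WT as for 30.7% of all probe sets, and overlapped in DN3 and DP cells. The DN4 difference of -0.46 ± 0.14 did not pass (adjusted p = 0.117). From DN4 to DP it fell by 0.51 ± 0.14 in WT cells (adjusted p = 0.0158), a call lost without WT DN4 replicate 1 (0.0812) or 2 (0.0539) or WT DP replicate 2 (0.101, with a fall of 0.30). Another set fell by 0.38 ± 0.13 (adjusted p = 0.0449), a call lost in 9 of 12 fits without 1 array (up to 0.275, without WT DN4 replicate 2, with a fall of 0.24). Over the same step the remaining set differed by 0.10 ± 0.22, so the 3 sets of the gene disagreed. Itgam lay below the array median on all 12 arrays, between 3.51 and 4.07, and its difference between IkL/L and WT cells was 0.29 ± 0.17 in DN3, -0.11 ± 0.17 in DN4 and 0.02 ± 0.17 in DP cells (adjusted p = 0.630, 0.750 and 0.991). Its partner chain Itgb2, shared by several leukocyte integrins, rose from DN4 to DP by 1.68 ± 0.22 in IkL/L cells (adjusted p = 0.00042) and by 1.85 ± 0.22 in WT cells (adjusted p = 0.000149), as did Itgal, which pairs with it as LFA-1.

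Alas2 was high on the IkL/L DN3 and DN4 replicate 1 arrays, as S100a8 was, but not on IkL/L DP replicate 2, and it was also present in WT cells. It read 8.80 and 5.65 in IkL/L DN3 cells, against 6.58 and 7.10 in WT DN3 cells. In DN4 cells it read 8.64 and 5.85 in IkL/L, against 6.56 and 7.13 in WT, and in DP cells 4.95 and 5.31 in IkL/L, against 5.66 and 5.76 in WT. In both DN stages IkL/L replicate 1 lay above both WT arrays and IkL/L replicate 2 below both. In DP cells both IkL/L arrays lay below WT, for which the share of all probe sets was not counted. The differences of 0.39 ± 0.99, 0.39 ± 0.99 and -0.58 ± 0.99 (SE) between IkL/L and WT DN3, DN4 and DP cells did not pass (adjusted p = 0.930, 0.853 and 0.932). With the 3 IkL/L replicate 2 arrays left out, the differences in DN3 and DN4 cells were 1.96 and 1.79. With the 3 IkL/L replicate 1 arrays left out they were -1.19 and -1.0, so the direction turned with the replicate. Each of these fits leaves 1 array per IkL/L group and holds no spread between IkL/L replicates, so no p-value is given. Its DP minus DN4 difference was -2.11 ± 0.99 in IkL/L cells (adjusted p = 0.188). In WT cells it was -1.14 ± 0.99 (adjusted p = 0.431). The DP arrays lay below the DN4 arrays of their genotype without overlap. How many of all probe sets did so was not counted. Over this step 21.4% of them were called in IkL/L and 33.6% in WT cells. The WT difference was the same in both fits without 3 IkL/L arrays. The IkL/L difference was -3.69 without the replicate 2 arrays and -0.54 without the replicate 1 arrays.

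The 250 bases before Alas2, at chrX:150547167-150547416 on the plus strand (RefSeq, GRCm38.p6), are shown because this gene is a known target of GATA and KLF factors, 2 of which are members here, with capitals as for S100a8.
Alas2: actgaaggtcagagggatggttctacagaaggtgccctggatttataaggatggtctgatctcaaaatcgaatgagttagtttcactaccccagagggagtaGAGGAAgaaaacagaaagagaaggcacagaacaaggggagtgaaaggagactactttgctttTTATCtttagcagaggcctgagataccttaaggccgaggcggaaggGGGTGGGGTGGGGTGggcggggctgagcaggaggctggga
The window held 1 match to GATAA, 86 bases before the gene's start, 3 abutting matches to CACCC and 1 to GAGGAA. These letters are a description of the window and say nothing of whether a factor binds there.

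The 4 globin probe sets that carry several gene symbols, like Alas2, were highest on IkL/L replicate 1 in DN3 and in DN4 cells. A set for Hba-a1 alone did not show this order: it read 4.02 and 4.13 in IkL/L DN3 cells against 4.04 and 3.83 in WT, and 3.85 and 3.81 in IkL/L DN4 cells against 4.09 and 4.13 in WT, below the array median on all 12 arrays. A set for Hbb-b2 alone did: it read 7.16 and 4.92 in IkL/L DN3 cells against 4.97 and 5.15 in WT. In DN4 cells it read 6.30 and 4.835 in IkL/L against 4.94 and 4.97 in WT. Its DP readings, 4.03 to 4.65, lay below the array medians. A set shared by both adult alpha-globin genes, which it cannot tell apart, read 11.12 and 8.44 in IkL/L DN3 cells against 9.02 and 9.42 in WT, and 10.66 and 8.63 in IkL/L DN4 cells against 8.85 and 8.89 in WT. In DP cells it read 6.46 and 7.91 in IkL/L against 6.74 and 7.45 in WT. A set shared by the adult beta-globin genes read 13.998 and 12.69 in IkL/L DN3 cells against 13.15 and 13.32 in WT, 13.98 and 12.97 in IkL/L DN4 cells against 12.73 and 12.84 in WT, and 11.38 and 12.23 in IkL/L DP cells against 11.46 and 12.05 in WT. These alpha- and beta-globin sets lay above the array median on every array, and were highest on IkL/L DN3 and DN4 replicate 1. On IkL/L DP replicate 2 both of these sets lay above both WT arrays, where Alas2 lay below both, and on IkL/L DN4 replicate 2 the beta-globin set lay above both WT arrays and Alas2 below both. None of the 4 was called between IkL/L and WT cells at any stage (adjusted p = 0.434 to 0.996). In IkL/L cells 3 of the 4 fell from DN4 to DP, with differences of -1.62, -2.03 and -1.67 (adjusted p = 0.0411, 0.046 and 0.0269), a step over which 21.4% of all probe sets were called. In WT cells the 4 differences ran from -1.78 to -1.0 and none passed (adjusted p = 0.1 to 0.152).

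**Figure D4:**
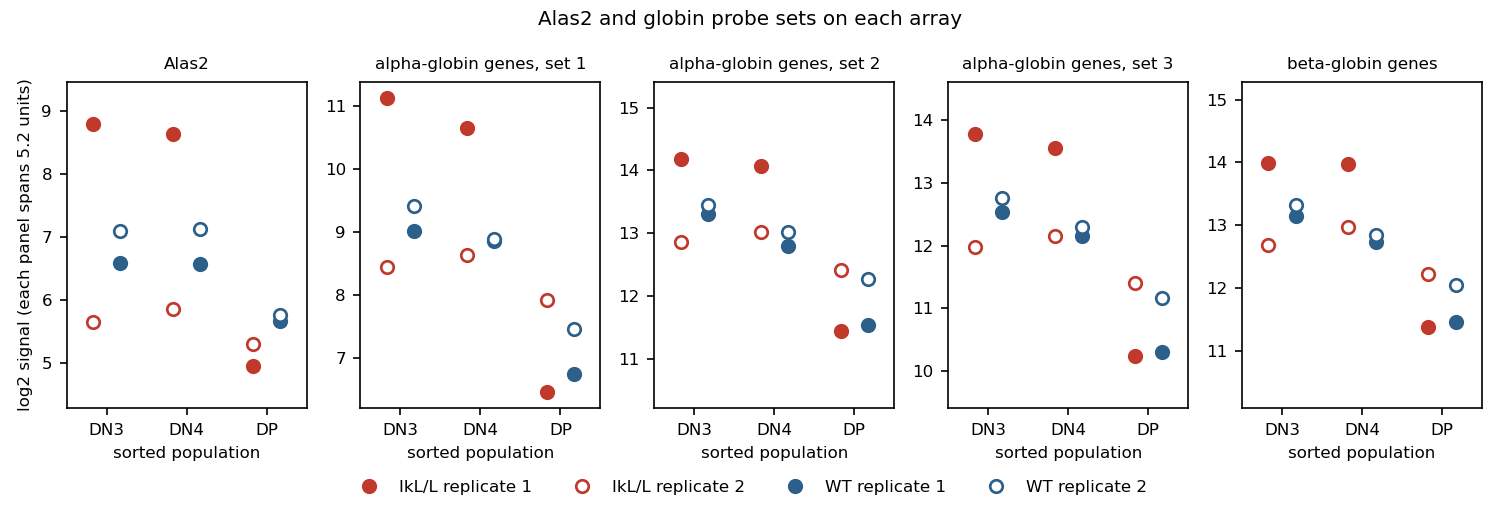
Log2 signal (vertical axis, the same span in each panel) of Alas2 and of 4 globin probe sets in DN3, DN4 and DP cells, 1 point per array, IkL/L in red left of WT in blue, replicate 1 filled and replicate 2 open. In all 5 panels IkL/L replicate 1 is the highest array of the DN3 and of the DN4 cells, and the DP arrays are low.

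Other red cell genes followed that order in part. Slc4a1, the band 3 anion exchanger of the red cell membrane, read 5.59 and 4.63 in IkL/L DN3 cells against 5.14 and 5.33 in WT, and 6.90 and 5.15 in IkL/L DN4 cells against 5.26 and 5.20 in WT, so it was highest on IkL/L DN4 replicate 1 and only slightly above WT on IkL/L DN3 replicate 1. Car2, a carbonic anhydrase gene, read 6.96 and 5.55 in IkL/L DN3 cells against 5.68 and 5.88 in WT, and 7.85 and 6.11 in IkL/L DN4 cells against 5.40 and 5.80 in WT. In DP cells it read above all DN arrays of its genotype, at 8.44 and 8.86 in IkL/L against 7.78 and 8.81 in WT, unlike Alas2. Fech, which inserts iron into heme, read 9.43 and 8.64 in IkL/L DN3 cells against 8.70 and 8.77 in WT, and 9.56 and 9.10 in IkL/L DN4 cells against 8.65 and 8.74 in WT. Tal1, a transcription factor of early blood cells, read 5.49 and 4.75 in IkL/L DN3 cells against 3.93 and 4.14 in WT, and 4.49 and 4.25 in IkL/L DN4 cells against 3.93 and 4.10 in WT. The membrane genes Epb42 (3.99 to 4.53) and Rhag (3.22 to 3.65), picked for their low level, lay below the array median on all 12 arrays. In the erythroid list given next, Hba-a1 and Car1 did so too. Epor, Sptb, Car2, Tfrc, Slc25a37 and Fech were at or above that median on all 12 arrays. The other genes of the list lay above it on some arrays and below it on others. An erythroid list of 19 measured genes, without the globin sets above, which carry several symbols, averaged 6.26 and 5.77 in IkL/L DN3 cells against 5.90 and 5.96 in WT, 6.19 and 5.76 in IkL/L DN4 cells against 5.81 and 5.92 in WT, and 5.71 to 5.80 in IkL/L DP cells against 5.69 to 5.71 in WT. Of the 19 genes, 3 (Alas2, Tal1 and Car2) lay 1 log2 unit or more above both WT arrays on IkL/L DN3 replicate 1 and 3 (Alas2, Slc4a1 and Car2) on IkL/L DN4 replicate 1, where 0.633% and 1.39% of all probe sets did. The summed linear signal of the 19 genes ran from 3451 to 4216 in IkL/L DN3 cells against 3583 to 3919 in WT, and from 4095 to 4647 in IkL/L DN4 cells against 3356 to 3373 in WT. Of the 19 genes 0 were called between the genotypes at any stage, with median differences of 0.12, -0.02 and 0.02. The shares of all probe sets called were 1.09%, 1.82% and 1.68%, and 4.28%, 6.89% and 5.98% with 1 bright set a gene. The part of admixed red cells in the Alas2 values was not tested.

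Genes of heme synthesis other than Alas2 are used by all cells, and 3 of them fell from DN4 to DP, a share near that of all probe sets called over this step. Of 8 measured genes, Alas2 included, 3 fell from DN4 to DP in IkL/L cells and the same 3 in WT cells: Alas1, Alad and Cpox. The shares of all probe sets called were 21.4% and 33.6%, and with 1 bright set a gene 45.5% and 57.0%. Alad, the second enzyme of the pathway, fell by 1.92 ± 0.14 in IkL/L cells (adjusted p = 1.82e-05) and fell by 2.68 ± 0.14 in WT cells (adjusted p = 1.97e-06). It was the 1 heme gene called between the genotypes, at 8.09 and 8.07 in IkL/L DP cells against 7.17 and 7.45 in WT, a difference of 0.77 ± 0.14 (adjusted p = 0.0282). Alas1, the form of the first enzyme used outside red cells, fell by 0.66 ± 0.20 in IkL/L cells (adjusted p = 0.0418) and fell by 0.63 ± 0.20 in WT cells (adjusted p = 0.035).

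Gata1 was not called between the genotypes at any stage. It read 6.03 and 5.93 in IkL/L DN3 cells, against 5.77 and 5.64 in WT DN3 cells. In DN4 cells it read 5.29 and 5.47 in IkL/L against 5.56 and 5.63 in WT, and in DP cells 5.29 and 5.43 in IkL/L against 5.11 and 5.03 in WT. The IkL/L arrays lay above both WT arrays in DN3 cells, as 20.1% of all probe sets did, and in DP cells (18.3%), and below both in DN4 cells (30.7%). The differences of 0.27, -0.22 and 0.29 (each ± 0.11, SE) did not pass (adjusted p = 0.446, 0.306 and 0.342). From DN3 to DN4 it fell by 0.60 ± 0.11 in IkL/L cells (adjusted p = 0.0357), a call lost in 12 of 12 fits without 1 array (adjusted p = 0.0503 to 0.254), and differed by -0.11 ± 0.11 in WT cells (adjusted p = 0.706). From DN4 to DP it fell by 0.52 ± 0.11 in WT cells (adjusted p = 0.00482), a call that held in all 12 such fits, and differed by -0.02 ± 0.11 in IkL/L cells (adjusted p = 0.949).

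Klf1 overlapped between the genotypes at each stage. It read 5.76 and 5.46 in IkL/L DN3 cells against 5.16 and 5.62 in WT, 5.62 and 5.53 in IkL/L DN4 cells against 5.28 and 5.78 in WT, and 4.96 and 5.47 in IkL/L DP cells against 5.05 and 4.97 in WT. Its differences were 0.22, 0.04 and 0.20 (each ± 0.22, SE; adjusted p = 0.801, 0.940 and 0.875), and each neighbouring pair of its groups overlapped in the order of means. From DN4 to DP it differed by -0.36 ± 0.22 in IkL/L cells and by -0.52 ± 0.22 in WT cells (adjusted p = 0.347 and 0.106). Of 11 measured GATA, KLF and partner genes, 0 were called between IkL/L and WT cells at any stage, with median differences of 0.16, 0.04 and 0.13. Of all probe sets, 1.09%, 1.82% and 1.68% were called in DN3, DN4 and DP cells. With 1 bright set a gene the shares were 4.28%, 6.89% and 5.98%. Zfpm1, the FOG-1 partner of GATA factors, was lower in DP than in DN4 cells: it fell by 0.96 ± 0.23 in IkL/L cells (adjusted p = 0.014) and fell by 1.34 ± 0.23 in WT cells (adjusted p = 0.00159). Gata3, the GATA factor of T cells, fell by 0.80 ± 0.16 in IkL/L cells (adjusted p = 0.00544) and fell by 0.67 ± 0.16 in WT cells (adjusted p = 0.00956). Nfe2, a leucine-zipper factor of red cells and platelets, was lower in DN4 than in DN3 cells: it fell by 2.13 ± 0.25 in IkL/L cells (adjusted p = 0.00386) and fell by 2.28 ± 0.25 in WT cells (adjusted p = 0.00146), a step over which Lyz2 fell too. Hemgn, another gene of the erythroid list, went the other way over that step. It rose by 1.88 ± 0.32 in IkL/L cells (adjusted p = 0.0241) and was not called in WT cells.

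Counted over the 12 probe sets, 1 was called between IkL/L and WT cells in DN3 cells, where 1.09% of all probe sets were called, 1 in DN4 cells (1.82%) and 0 in DP cells (1.68%). The members called were lower in IkL/L cells, and both calls were of the brighter Cebpb set. From DN3 to DN4, 2 were called in IkL/L cells (1.22% of all) and 1 in WT cells (2.69%), all lower in DN4 cells. From DN4 to DP, 1 was called in IkL/L cells (21.4%) and 5 in WT cells (33.6%), all lower in DP cells. The change of the genotype difference from DN3 to DP cells was called for 0 of the 12 (0.22% of all). The median difference of the 12 sets between IkL/L and WT cells was 0.25 in DN3, -0.16 in DN4 and 0.03 in DP cells, against 0.01, -0.04 and -0.01 over all probe sets. Counted on single arrays, 4 of the 12 (S100a8, S100a9, Lyz2 and Alas2) lay 1 log2 unit or more above both WT arrays of their stage on IkL/L DN3 replicate 1, and 3 (S100a8, S100a9 and Alas2) on IkL/L DN4 replicate 1, where 1.39% of all probe sets did. On the other 4 IkL/L arrays the count was 0, where 1.73% (DN3 replicate 2), 4.16% (DN4 replicate 2), 0.739% (DP replicate 1) and 0.737% (DP replicate 2) of all probe sets did.

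The granulocyte genes and Alas2 depended on which IkL/L replicate was kept. Without the 3 IkL/L replicate 2 arrays, the difference between IkL/L and WT DN3 cells was 3.90 for S100a8, 3.16 for S100a9, 1.44 for Lyz2 and 1.96 for Alas2. In DN4 cells it was 2.18 for S100a8, 1.44 for S100a9 and 1.79 for Alas2. Without the 3 IkL/L replicate 1 arrays, S100a8 differed by 0.27 in DN3 and -0.43 in DN4 cells. S100a9 differed by 0.08 and -0.43, Alas2 by -1.19 and -1.0, and Lyz2 by 0.61 in DN3 cells. From DN4 to DP in IkL/L cells the direction for S100a8 turned with the replicate kept. It differed by -2.41 without the replicate 2 arrays and by 1.94 without the replicate 1 arrays. With all arrays S100a8 differed over that step by -0.23 ± 1.12 (SE). Each fit without 3 arrays has 9 arrays and 1 array per IkL/L group, and holds no spread between IkL/L replicates. Over all arrays the SD of S100a8 was 2.57 in IkL/L DN3 cells and 0.11 in WT DN3 cells. That spread can therefore not be taken from WT cells, and no p-value or call is given.

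The genes most like each member over the 12 arrays are given by Pearson's r among 5785 genes, as a description, since arrays share their stage and may share their mice. For S100a8 they were Ngp (0.97), Camp (0.95), S100a9 (0.94), Rffl (0.88) and Hbb-b2 (0.83), and for S100a9 Ngp (0.96), Camp (0.94), S100a8 (0.94), Hbb-b2 (0.89) and Tmc4 (0.86). Hbb-b2 encodes an adult beta-globin. For Lyz2 they were Lyz1 (0.95), the annexin gene Anxa1 (0.95), Mndal (0.95), Rnf182 (0.95) and Myof (0.94). Cebpb was most like Pdia4, a disulfide isomerase of the endoplasmic reticulum (0.98), then Adat1, Slc25a33, Dclre1a and Epop (0.97 to 0.98). Alas2 was most like Gda (0.92), Hbb-b2 (0.91), Tent5c (0.91), Pdzd4 (0.90) and Hnrnpl (0.87). Tent5c, a poly(A) polymerase gene, read 8.47 and 5.03 in IkL/L DN3 cells against 6.29 and 6.93 in WT, and 8.40 and 5.61 in IkL/L DN4 cells against 6.0 and 6.52 in WT. Gata1 was most like Ociad2 (0.93), Dtx4, Cst7, H2-K1 and Sema4a (0.91), Klf1 most like Apobec3 (0.90), Timmdc1, Mdrl, Glmn and Trmt5 (0.84), and Csf1r most like Sox5 (0.84), Ciart, Nrarp, Disp2 and Cd7 (0.77).

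Relatives of the members and markers of other cells gave the following counts between IkL/L and WT cells, where 1.09% of all probe sets were called in DN3, 1.82% in DN4 and 1.68% in DP cells, and 4.28%, 6.89% and 5.98% with 1 bright set a gene. Of 13 measured S100 genes, 1 was called at each stage: S100a10, the annexin A2 partner, lower in IkL/L cells, with differences of -1.11 in DN3, -1.44 in DN4 and -1.12 in DP cells (each ± 0.16, SE; adjusted p = 0.0106, 0.00289 and 0.0073). Of 8 colony-stimulating factors and receptors 0 were called, and of 5 leukocyte integrin genes 0. Of 13 dendritic cell genes H2-Ab1 was higher in DN3 cells, and H2-Ab1 and Tcf4 in DN4 and DP cells. Of 9 B cell genes 1, Ighm, was higher in DN3 cells. Of 6 platelet, 8 mast cell and basophil and 10 thymic stroma genes 0 were called at any stage. Of 4 sex-linked genes 0 were called, but Eif2s3y differed by -2.68 in DN3, -2.40 in DN4 and -3.44 in DP cells (each ± 2.31, SE). Its IkL/L replicates were far apart, so that test could not decide whether the genotypes differ. Of 15 thymocyte genes 0 were called in DN3 cells, and 2 were higher and 1 lower in each of DN4 and DP cells. The stroma list averaged 4.63 to 4.78 on the IkL/L arrays against 4.69 to 4.98 on the WT arrays.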

How the data were processed

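RNA of 12 samples was measured on Affymetrix arrays after a double round of amplification, per the labels' protocols. These name 3 labelling series but do not assign samples to them, and the part of that step in the values was not tested. The authors deposited log2 signals, 1 per probe set and array, from 2.68 to 14.7; RMA is named in the submitters' processing notes, with no version.

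Among 45099 probe sets, 34958 have 1 symbol in the platform annotation, 932 several and 9209 none. All but 62 control sets were fitted in limma (version 3.58.1, under R 4.3.3, with statmod 1.5.0), with no brightness filter and 1 mean per group over all 12 arrays (6 residual and 3.48 prior degrees of freedom). Each p of a contrast is limma's, adjusted by Benjamini-Hochberg over all 45037 sets, and a set is called under 0.05. The fit was tested on simulated data.

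A gene of a list is its brightest probe set. Members, lists and tests were chosen with earlier results of these data known. Named genes are all members, up to 4 called genes and the 3 brightest of each of 17 lists, and the 5 genes most like each member by r, among genes with 2 arrays at or above the array median and a range of 1 log2 unit. Chosen after their values were seen were the globin and Lyz1 sets, Slc4a1, Epb42, Rhag, Tal1, Elane, Cebpa, Cebpd, the 6 macrophage genes below the array median, other called genes named beside a count, and the granulocyte genes outside that rule. Alternatives were a brightness filter, 1 value per gene, other priors, weights and normalizations, replicate blocks, arrays left out and a minimum difference of 1. The crossed block and the fit without the 3 IkL/L replicate 1 arrays were added after seeing the data. So were the other genes of the macrophage and erythroid lists named by their place against the array median.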

Additional observations from a re-analysis of the deposited data

Results flagged for a closer look

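Gata1 in IkL/L cells lay on opposite sides of WT at different stages, and none of its differences passed the test (adjusted p = 0.446 in DN3, 0.306 in DN4 and 0.342 in DP cells). Both IkL/L arrays lay above both WT arrays in DN3 cells, by 0.273 on average, and in DP cells, by 0.29, and below both in DN4 cells, by a difference of -0.216 (log2 units). Of all probe sets, 20.1% lay above in that way in DN3 cells, 18.3% above in DP cells and 30.7% below in DN4 cells. The difference between DP and DN3 cells was 0.02 ± 0.16 (SE; adjusted p = 0.985), and that between DN4 cells and either of the others was not tested.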

How the results depend on the processing

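The 11 calls of single members were refitted under 283 alternatives, of which 199 kept the call and direction, 84 lost the call in the same direction, and 0 turned. Of the 12 sets, the 1 called between IkL/L and WT DN3 cells became 0 with the mean of a gene's sets, array weights, a second quantile normalization, the replicate block, the random block, only the arrays compared, or a minimum difference of 1. The 1 in DN4 cells became 0 with the replicate block or that minimum. From DN3 to DN4, the 2 in IkL/L cells became 1 with a trended robust prior, array weights, centred arrays, the replicate block or that minimum, and 0 with only the arrays compared. The 1 in WT cells became 0 with the replicate block. The 5 in WT cells from DN4 to DP became 3 with 1 set a gene, 2 with a gene's mean and 1 with that minimum. Without the 3 IkL/L replicate 2 arrays the counts were 4 in DN3 cells, 3 in DN4 cells, 4 from DN4 to DP in IkL/L cells and 2 for the change of the genotype difference; without the 3 replicate 1 arrays the DN4 to DP count in IkL/L cells was 2. Leaving out 1 array at a time gave 0 to 1 for both genotype counts and both DN3 to DN4 counts, 1 to 2 for DN4 to DP in IkL/L cells and 3 to 5 in WT cells, and 0 in DP cells. The cause of these changes was not tested.

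Same-numbered arrays are not stated to be paired, and their deviations correlated at -0.41 between IkL/L and WT DN3 cells, -0.28 in DN4 and 0.18 in DP cells. Within a genotype they correlated at 0.60 between IkL/L DN3 and DN4 cells and at 0.27 to 0.36 between WT stages, but at -0.18 between IkL/L DP cells and either other IkL/L stage. Under the replicate block Cebpb had adjusted p = 0.0905 in DN3 and 0.0683 in DN4 cells. With the block crossed between genotypes, 634 and 1915 of all probe sets were called in DN3 and DN4 cells, against 491 and 819. Over the settings that fit all 45037 probe sets, arrays left out and the minimum of 1 included, the count ran from 23 to 1040 in DN3 cells (491 as reported above), from 176 to 2457 in DN4 cells (819), from 247 to 944 in DP cells (755), from 1 to 779 from DN3 to DN4 in IkL/L cells (551) and from 282 to 2405 in WT cells (1213), from 4236 to 10988 from DN4 to DP in IkL/L cells (9641) and from 7207 to 16219 in WT cells (15152), and from 27 to 228 for the change of the genotype difference (99). With 1 bright set for each of 11648 genes, 5297 and 6636 were called from DN4 to DP in IkL/L and WT cells and 202 for that change. A second quantile normalization split the calls of DN4 cells into 448 higher and 552 lower in IkL/L, against 562 and 257, and those from DN3 to DN4 in WT cells into 322 higher and 824 lower, against 182 and 1031. With 2 arrays a group, sets near background, such as Itgam and the dim Cebpb set, give little information.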
